A study of Mus musculus with 38 samples.

Results

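Below the 30 piRNAs with the most reads, 281 piRNAs were counted at least 10 times in the sperm of each of 38 mice, out of 637529 piRNA names with at least 1 genome-matched read in any mouse. These 281 were chosen in 3 steps. Levels were expressed as reads per 1000000 genome-matched reads (RPM). The 30 piRNAs with the highest mean RPM over the 38 mice were left out, and of the rest those with at least 10 reads in every mouse were kept. In all, 304 piRNAs met that minimum, and 23 of them were among the 30. The remaining 7 of the 30 had fewer than 10 reads in some mouse. Because the counts themselves chose the 281, their abundance and their presence in every mouse are described here and not tested. The choice took no account of diet.

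All mice were C57BL6/J males. The first 2 letters of a group name stand for what the dam was fed from conception until the pups were weaned, at 21 days. The last 2 stand for what the son itself ate from then on, until it was killed at 11 to 13 weeks of age. CT was the control diet with 20% protein and PR the protein-restricted diet with 8%. CTCT held 10 mice, CTPR 9, PRCT 9 and PRPR 10. They came from 21 litters. Littermates on different diets after weaning could be paired in 8 litters of CT dams and in 9 of PR dams.

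PIWI-interacting RNAs (piRNAs) are short RNAs of the male germ line, carried by PIWI proteins. In the embryonic testis they guide the silencing of transposons. In adult spermatocytes and round spermatids, long precursors from genomic clusters are cut into a very large number of different pachytene piRNAs. Mature sperm are transcriptionally quiet, so their piRNAs are thought to be remnants of spermatogenesis. The names used here are those of the piRNAdb database. A piRNA name stands for a sequence and not for a gene with a known role, so the functions of single piRNAs are not described. Their sequences and genome positions were not analysed here.

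The libraries held between 4465281 and 7612603 genome-matched reads. Of the marker miRNAs of germ cells, mir-34c reached a median of 293 RPM in CTCT mice and 724 RPM in CTPR mice, and 6 of 8 such markers had a read in every mouse. Markers of other cells were present too. The smooth muscle markers mir-143 and mir-145a, 2 of 2 with a read in every mouse, summed to between 62.3 and 3947 RPM in CTCT mice, 70.7 and 8098 in CTPR, 372 and 3246 in PRCT and 244 and 3406 in PRPR. For the 4 epithelial markers of the mir-200 family, all seen in every mouse, the range was 38.3 to 1752 RPM in CTCT mice, 33.7 to 2165 in CTPR, 130 to 1025 in PRCT and 95.5 to 1269 in PRPR. The blood markers mir-451a, mir-144 and mir-223 summed to at most 64.0 RPM in any mouse, with a read of mir-451a in 37 mice and of mir-144 in 13. Median summed levels of the germ cell, smooth muscle, epithelial and blood markers were highest in the CTPR group, where the piRNAs below were also highest. They were 1529, 2493, 1025 and 19.1 RPM in CTPR mice and 637, 1457, 513 and 14.9 RPM in CTCT mice. PRCT mice had 924, 1213, 386 and 16.8 RPM, and PRPR mice 767, 1080, 441 and 13.4 RPM. Of the blood markers, mir-451a alone had a median of 6.19 RPM in CTCT and 5.34 RPM in CTPR mice. The part of the markers in the results was not tested. In such bulk samples, fewer cells of a type and less RNA per cell cannot be told apart.

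The 281 piRNAs spanned a wide range of abundance. Mean levels ran from 4.66 to 178 RPM with a median of 23.6 RPM, counted in reads and not divided by length. Of the 281, 13 averaged at least 100 RPM, 43 between 50 and 100, 181 between 10 and 50, and 44 under 10. Ranked by mean among all piRNA names, they reached from rank 33 down to rank 2530. Only 463 piRNA names had a read in every mouse.

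The most abundant was piR-mmu-16586008, with 178 RPM on average. It was followed by piR-mmu-9976943 with 161 RPM, piR-mmu-9622968 with 155 RPM, piR-mmu-5768130 with 146 RPM, piR-mmu-18166063 with 142 RPM, piR-mmu-8437470 with 134 RPM, piR-mmu-11574719 with 130 RPM and piR-mmu-10813768 with 128 RPM. A high mean did not always go with an even level. The leading piR-mmu-16586008 ranged from 2.63 RPM in mouse 07C3 (CTCT) to 624.7 RPM in mouse 57P1 (CTPR), whereas piR-mmu-9976943 stayed between 50.5 and 411 RPM. At the other end stood piR-mmu-40530286 with 5.12 RPM, piR-mmu-6405257 with 4.76 RPM and piR-mmu-11128471 with 4.66 RPM.

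Just above the limit, piR-mmu-13060756 with 210 RPM, piR-mmu-615070 with 193 RPM and piR-mmu-27495050 with 192 RPM were the last of the 30 left out. On the other edge, 17 of the 281 had a lowest count of exactly 10. Among the piRNAs that missed the minimum by 1 read, the highest means were those of piR-mmu-39925094 (26.3 RPM), piR-mmu-8486357 (23.9 RPM) and piR-mmu-10225117 (17.9 RPM). All 3 missed it in the same animal, mouse 07C3 (CTCT), with 9 reads each.

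That mouse largely set the list. Of the 281 piRNAs, 173 had their lowest count in 07C3, where all piRNA reads together made up 1.52% of the genome-matched reads, against 4.35% to 33.2% in the other 37 mice. Without 07C3, 386 piRNAs below the top 30 would have met the minimum. The highest levels were also concentrated, with 63 piRNAs at their maximum in mouse 02A6 (CTCT), 56 in 57P1 (CTPR) and 27 in 40H3 (PRPR).

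**Figure D1:**
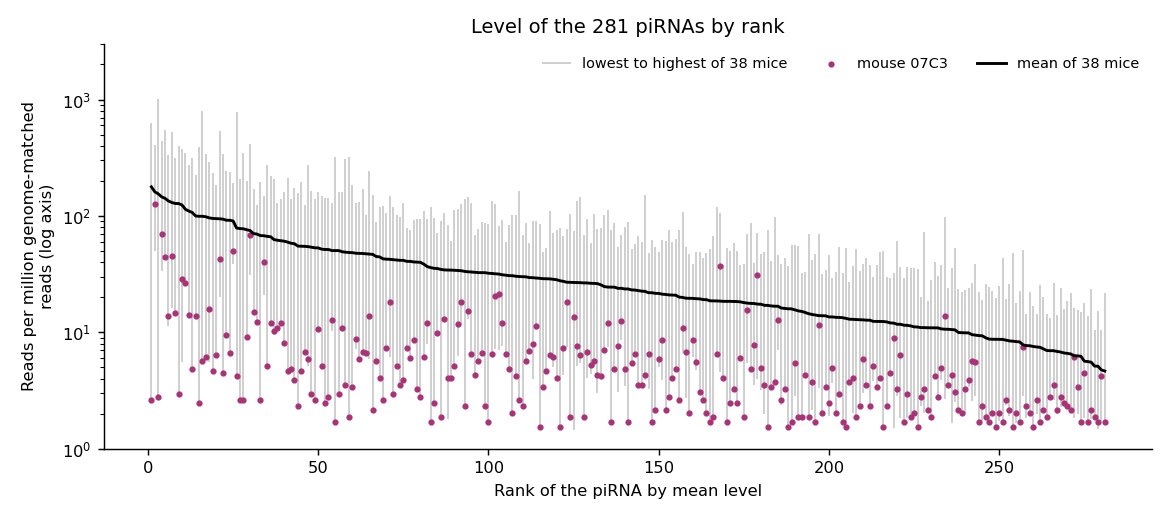
Mean level (black line, RPM on a log axis) of the 281 piRNAs in order of rank, with the lowest and highest of 38 mice (grey bars) and the level in mouse 07C3 (purple points). The means fall from 178 to 4.66 RPM, and mouse 07C3 lies at or near the lower end of most bars.

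Around the group means, the SD of a piRNA's level ran from 0.50 to 1.57 on the log2 scale, with a median of 0.89. The ratio of the highest to the lowest mouse had a median of 17.9, with a range from 4.79 to 360. The steadiest were piR-mmu-13435261 (SD 0.50, mean 90.6 RPM), piR-mmu-4019079 (SD 0.55, 8.57 RPM) and piR-mmu-3331210 (SD 0.56, 6.96 RPM). The most variable were piR-mmu-51484238 (SD 1.57, 48.5 RPM), piR-mmu-5334943 (SD 1.56, 99.3 RPM) and piR-mmu-9053626 (SD 1.52, 50.4 RPM). Both kinds therefore occurred among abundant piRNAs.

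Summed over the 281 piRNAs, the level was highest in CTPR sperm. Of the genome-matched reads, it made up 1.198% ± 0.325 (SD, n = 9) there, against 0.863% ± 0.3997 (n = 10) in CTCT sperm. PRCT sperm had 0.892% ± 0.307 (n = 9) and PRPR sperm 0.885% ± 0.325 (n = 10). The groups overlapped, with CTCT mice between 0.198% and 1.61% and CTPR mice between 0.628% and 1.69%. The PRCT mice lay between 0.442% and 1.25% and the PRPR mice between 0.562% and 1.55%. No test was made of these sums, since the piRNAs in them were chosen by their counts.

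All piRNA reads together followed the same order in the first 2 groups, with 10.7% ± 5.44 in CTCT and 16.4% ± 7.83 in CTPR sperm. As a share of those piRNA reads, the 281 made up 8.78% ± 2.51 in CTCT sperm and 8.03% ± 1.97 in CTPR sperm. The share was 9.50% ± 1.35 in PRCT and 8.98% ± 1.57 in PRPR sperm. The CTPR group, highest by the first measure, was lowest by the second. Its mouse 57P1 had the most piRNA reads of all 38 mice (33.2% of genome-matched reads) and the smallest share of them in the 281 (5.09%).

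**Figure D2:**
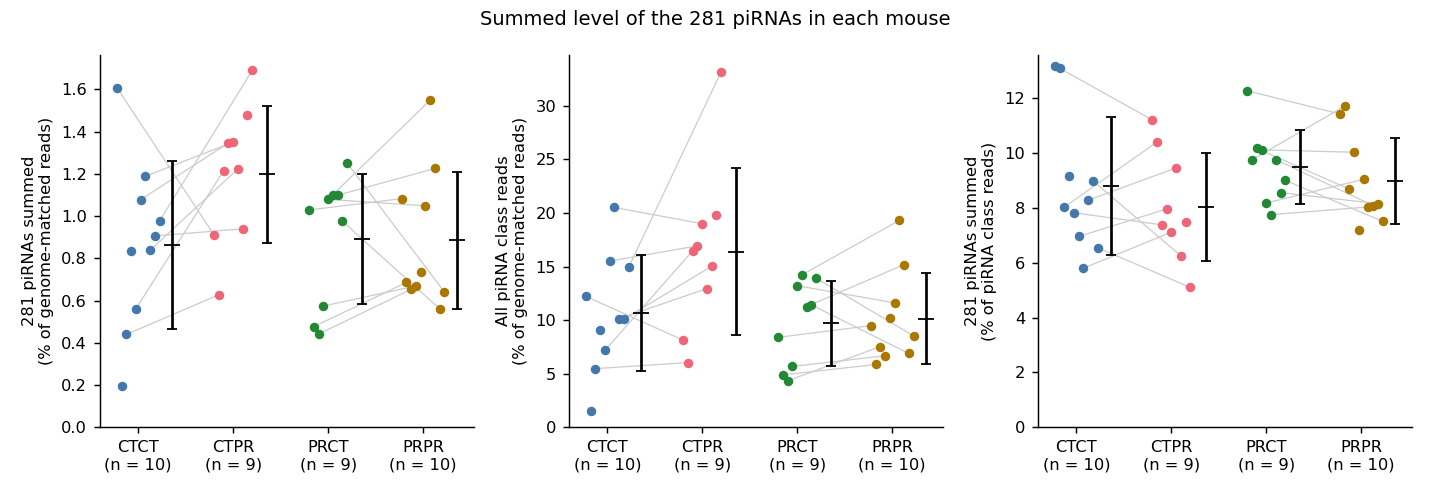
Each point is a mouse, grey lines join littermates, and black bars give mean ± SD. The left panel shows the 281 piRNAs as a percentage of genome-matched reads (means 0.863, 1.198, 0.892 and 0.885), the middle panel all piRNA reads on the same scale, and the right panel the 281 as a percentage of piRNA reads (means 8.78, 8.03, 9.50 and 8.98).

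Between littermates of CT dams, the CTPR mouse had the higher summed level in 7 of 8 litters (6 of 8 if litter 47I is grouped as its sample labels say), and the mean difference was 0.213 percentage points ± 0.438 (SD). The exception was litter 02A, with 1.61% in the CTCT mouse and 0.910% in the CTPR mouse. Among the 7 litters with the higher level in the CTPR mouse, the differences were largest in litter 57P, with 0.977% and 1.69%, and in litter 35F, with 0.561% and 1.22%. As a share of piRNA reads, it was the higher one in 4 of the 8, and the difference averaged -0.0910 points ± 1.82. Between littermates of PR dams, the PRPR mouse was above its brother in 6 of 9 litters, and the difference averaged 0.00982 points ± 0.328. Litters 39F, 51O and 59L went the other way. Litter 51O had 0.976% in the PRCT mouse and 0.562% in the PRPR mouse, and litter 59L had 1.25% and 0.641%.

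For each piRNA, groups were compared with edgeR's quasi-likelihood test, with the genome-matched reads as library size. The fit covered 453 RNAs with at least 10 reads in every mouse, namely the 304 piRNAs together with 66 miRNAs and 83 tRNA features, and P values were adjusted over all 453 (Benjamini-Hochberg).

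The first question was whether restriction after weaning alone went with other levels of these piRNAs. Against the CTCT group, the CTPR group had 0 of the 281 with an adjusted P under 0.05 (0.0% of all 453 RNAs). At an unadjusted P under 0.05, 50 were more abundant in CTPR sperm (17.8% of the 281, against 17.7% of all RNAs tested) and 1 was less abundant (0.356%, against 0.221%). DESeq2 also called 0. With mice 08G5, 31A3, 35F2 and 07C3 left out, the unadjusted counts were 30 and 3 (38 and 3 of all 453 RNAs). The estimated change was positive for 238 of the 281 with all mice. Without those 4 it was positive for 202, with a median log2 fold change of 0.24. With all mice the median log2 fold change of the 281 was 0.44, and that of all 453 RNAs, the 281 among them, was 0.49. Whether miRNAs and tRNAs taken alone shared the shift was not tested. One mouse decided the adjusted count. Without 45L3 (CTCT), 4 piRNAs passed the threshold (5 of all 453 RNAs), namely piR-mmu-2208275, piR-mmu-6159833, piR-mmu-10813768 and piR-mmu-25216821.

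When the piRNA reads of each mouse served as library size instead, the median log2 fold change was -0.14 (all RNAs, -0.11). On that scale 4 of the 281 were more and 18 less abundant in CTPR sperm at an unadjusted P under 0.05 (edgeR, against 1.32% and 6.18% of all RNAs). TMM factors gave 20 and 16 (24 and 22 of all 453 RNAs), and DESeq2 gave 15 and 26 (19 and 36 of 453). The median of the 281 was above zero against genome-matched reads and below zero against piRNA reads, as was that of all RNAs.

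The 3 piRNAs with the smallest P in this contrast were piR-mmu-6159833, piR-mmu-2208275 and piR-mmu-25216821. Levels of piR-mmu-6159833 ran from 1.86 to 10.4 RPM (median 5.92) in CTCT mice and from 7.13 to 27.1 RPM (median 14.6) in CTPR mice. Its log2 fold change was 1.31 (standard error 0.35, edgeR adjusted P = 0.120). The 2 groups overlapped only between 7.13 and 10.4 RPM. In PRCT mice it had a median of 8.96 RPM (3.65 to 18.7) and in PRPR mice of 12.8 RPM (4.69 to 28.5). The PRPR level exceeded CTCT by 1.13 on the log2 scale (standard error 0.34, edgeR adjusted P = 0.268). For piR-mmu-2208275 the CTCT mice ranged from 2.17 to 81.8 RPM (median 19.2) and the CTPR mice from 8.92 to 151 RPM (median 56.7), which came to 1.63 on the log2 scale (standard error 0.48, edgeR adjusted P = 0.120). The third, piR-mmu-25216821, ranged from 2.63 to 89.5 RPM (median 25.995) in CTCT and from 13.1 to 344 RPM (median 86.9) in CTPR mice, and its log2 fold change was 1.71 (standard error 0.51, edgeR adjusted P = 0.120). Both overlapped widely between the groups. Over 50 alternatives each, the adjusted P ranged from 0.0424 to 0.709 for piR-mmu-6159833 and piR-mmu-25216821 and from 0.0320 to 0.709 for piR-mmu-2208275 (edgeR and DESeq2).

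With litter in the fit, the 8 pairs of CTPR and CTCT littermates gave 0 piRNAs with an adjusted P under 0.05 (0.0% of all RNAs). At the unadjusted threshold, edgeR called 52 higher (18.5% of the 281, against 17% of all RNAs) and 1 lower (0.356%, against 0.442%). The median log2 fold change was 0.33, and 0.35 over all RNAs. In the fit with litter and with piRNA reads as library size it was -0.02, with 7 higher and 9 lower (1.99% and 2.65% of all RNAs). TMM factors gave 9 higher and 15 lower (12 and 22 of all 453 RNAs).

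Of the 281, 11 were more abundant in the CTPR mouse of all 8 litters (3.09% of all RNAs tested) and 0 less abundant in all 8 (0.0%). By construction none of these 11 could be higher in all 8 if litter 47I were grouped by its sample labels, since that swap reverses each of them there. Under those labels 1 of the 281 and 2 of the 453 RNAs would be higher in all 8. piR-mmu-6159833 was among the 11, and its log2 fold change between littermates was 1.08 (standard error 0.28, edgeR adjusted P = 0.0868). Its levels in the CTCT and the CTPR mouse were 6.27 and 8.05 RPM in litter 02A, 5.47 and 13.0 in 09H, 3.58 and 23.96 in 35F, and 10.4 and 15.99 in 45L. In the other litters they were 9.15 and 14.6 RPM in 47I, 4.40 and 7.13 in 49K, 6.43 and 9.81 in 53M, and 8.56 and 27.1 in 57P. The gap was widest in litter 35F and narrowest in litter 02A. Another of the 11, piR-mmu-1938019, had a median of 7.53 RPM in CTCT mice (2.32 to 11.4) and of 14.4 RPM in CTPR mice (9.14 to 23.7), and differed between littermates by 0.96 on the log2 scale (standard error 0.29, edgeR adjusted P = 0.154).

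The smallest P between these littermates belonged to piR-mmu-4476909. It was higher in the CTPR mouse in 7 of 8 litters, and the difference was 1.42 on the log2 scale (standard error 0.34, edgeR adjusted P = 0.0671). The exception was litter 53M, with 31.7 RPM in the CTCT mouse and 27.0 RPM in the CTPR mouse. Without that litter the edgeR adjusted P was 0.0131. Over 15 alternatives, the adjusted P ranged from 0.0131 to 0.520 (edgeR) and the log2 fold change from 0.95 to 1.64. Leaving out litter 53M was the only alternative under which it passed the adjusted threshold. The widest gaps were 32.0 against 160 RPM in litter 45L and 28.8 against 121 RPM in litter 47I. Over all mice the CTCT group ranged from 2.94 to 81.5 RPM (median 31.8) and the CTPR group from 13.5 to 160 RPM (median 85.8). Both mice of litter 47I carry sample labels opposite to the grouping used here. With the labels' grouping the counts between littermates were 36 higher and 1 lower (66 and 1 of all 453 RNAs).

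**Figure D3:**
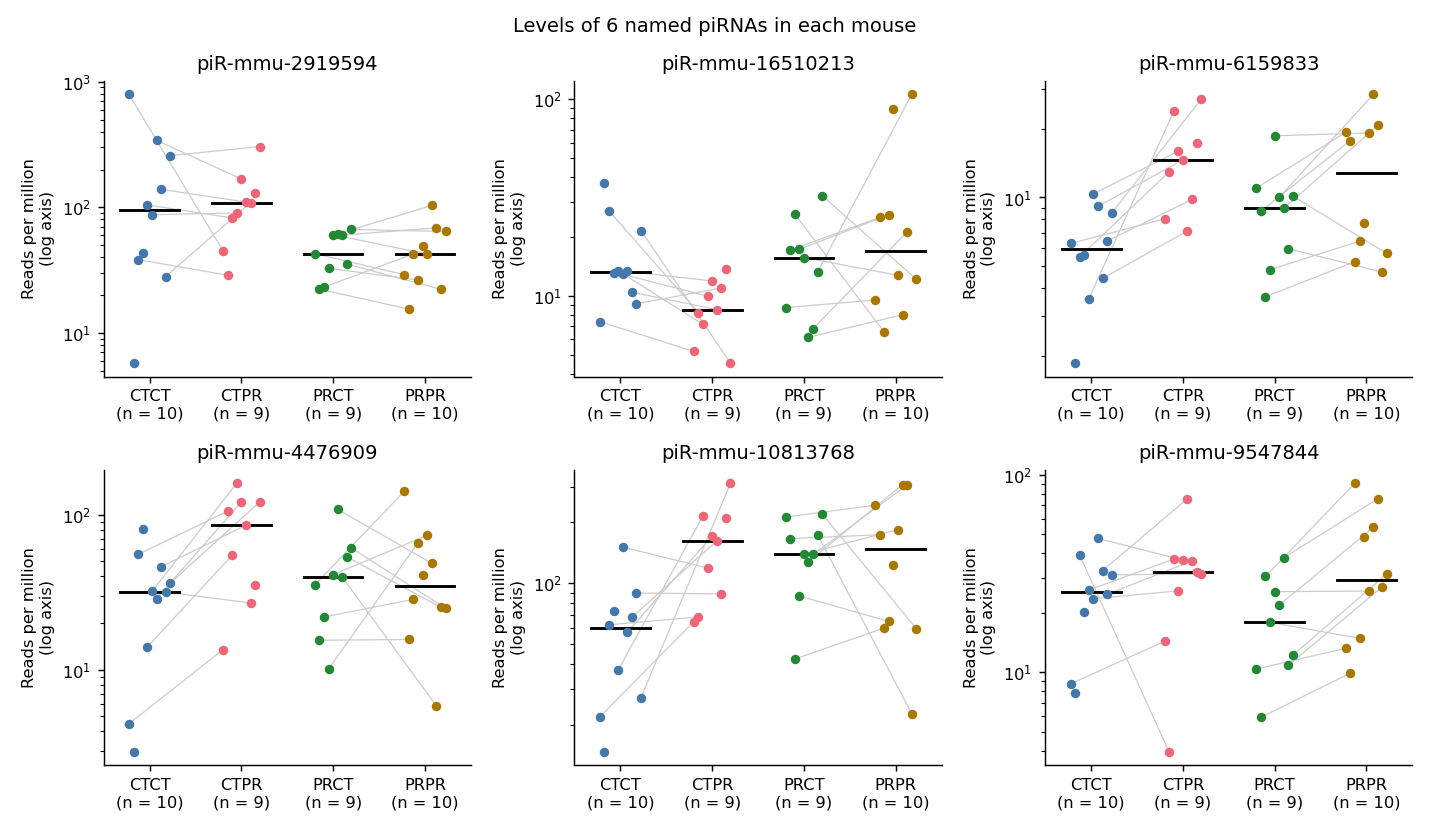
Levels of 6 named piRNAs in each mouse (points, RPM on log axes), with group medians (black lines) and littermates joined by grey lines. The PRCT and PRPR mice reach at most 103 RPM for piR-mmu-2919594 against 791 RPM in CTCT, and 2 PRPR mice stand above all others for piR-mmu-16510213.

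The second question was whether restriction before weaning, alone or lifelong, went with other levels in the sons' sperm. The PRCT group had 0 of the 281 past the adjusted threshold against CTCT (edgeR, 0.0% of all RNAs), while DESeq2 called 3 (3 of all 453 RNAs). At the unadjusted threshold 10 were higher (3.56%, against 2.87% of all RNAs) and 6 lower (2.14%, against 1.55%). With piRNA reads as library size, 21 were higher and 5 lower at that threshold (6.62% and 1.55% of all RNAs), with 1 adjusted call (1 of 453). The median log2 fold change was -0.04 (all RNAs, -0.07). In the PRPR group, 0 passed the adjusted threshold against CTCT (0.0% of all RNAs) and DESeq2 called 1 (1 of 453). There edgeR gave 15 higher (5.34%, against 3.97%) and 3 lower (1.07%, against 0.662%) at the unadjusted threshold, with a median of -0.02 (all RNAs, 0.01). Scaled to piRNA reads, the PRPR counts were 14 and 4 (4.42% and 0.883% of all RNAs). The medians were close to zero in both groups, but the balance of the counts was not stable. Without mice 07C3, 35F2, 31A3 and 08G5 there were 7 higher and 13 lower in PRCT (9 and 15 of all 453 RNAs), and 3 higher and 25 lower in PRPR sperm (3 and 25 of 453). TMM factors gave 14 and 15 in PRCT (20 and 19 of 453), and 8 and 13 in PRPR sperm (10 and 13 of 453). DESeq2 gave 13 and 18 (19 and 25 of 453), and 10 and 17 (12 and 17 of 453). Single mice also moved the totals of the 281, given here without those of all RNAs. The 16 in PRCT sperm became 9 without mouse 57P3 (CTCT) and 10 without 51O1 (PRCT), and the 18 in PRPR sperm became 10 without 40H3 and 11 without 46I3 (both PRPR).

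One piRNA stood out in both of these contrasts, which share the CTCT mice. In CTCT sperm, piR-mmu-2919594 ranged from 5.73 RPM in mouse 07C3 to 791 RPM in mouse 02A6, with a median of 95.7 RPM. The CTPR mice were between 28.8 and 305 RPM (median 109). The PRCT mice lay between 22.3 and 66.6 RPM (median 42.8) and the PRPR mice between 15.5 and 103 RPM (median 42.5). All PRCT mice were thus below the CTCT median, and the PRPR mice reached little above it, while all groups overlapped. Against CTCT, the log2 fold change was -2.03 (standard error 0.52, edgeR adjusted P = 0.122) in the PRCT group and -1.98 (standard error 0.50, edgeR adjusted P = 0.0972) in the PRPR group. In the CTPR group it was -0.62 (standard error 0.50, edgeR adjusted P = 0.419), and between PRPR and PRCT mice 0.04 (standard error 0.50).

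The evidence for piR-mmu-2919594 depended on the scale and on a few mice. Scaled to piRNA reads, the log2 fold changes were -1.67 in PRCT (edgeR adjusted P = 0.0199) and -1.77 in PRPR sperm (edgeR adjusted P = 0.00493). With TMM factors the edgeR adjusted P values were 0.0160 and 0.00611, and with DESeq2 the adjusted P values were 0.000470 and 0.000120. Without mouse 07C3, which has the lowest level, the edgeR adjusted P values were 0.0181 and 0.0136. Without litter 02A, which holds the mouse with the highest level, the log2 fold changes were -1.37 (edgeR adjusted P = 0.657) and -1.32 (edgeR adjusted P = 0.613).

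Lower levels at an unadjusted P under 0.05 in both contrasts were also estimated for piR-mmu-2700247 and piR-mmu-14134092, named after their values were seen. The median of piR-mmu-2700247 was 9.63 RPM in CTCT, 8.77 in CTPR, 6.87 in PRCT and 6.36 RPM in PRPR mice. Its log2 fold changes from CTCT were -1.004 (standard error 0.36, edgeR adjusted P = 0.604) in PRCT and -0.90 (standard error 0.34, edgeR adjusted P = 0.851) in PRPR sperm.

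Higher levels were estimated for piR-mmu-8437470 and piR-mmu-10813768, both among the 8 most abundant of the 281. CTCT mice had between 11.4 and 156 RPM of piR-mmu-8437470 (median 56.6), PRCT mice between 74.1 and 315 RPM (median 159) and PRPR mice between 32.3 and 333 RPM (median 118). The log2 fold change in PRCT sperm was 1.49 (standard error 0.46, edgeR adjusted P = 0.412). For piR-mmu-10813768 the ranges were 14.7 to 151 RPM in CTCT (median 59.9), 42.3 to 220 RPM in PRCT (median 139) and 22.8 to 307 RPM in PRPR mice (median 148), and CTPR mice had between 64.6 and 312 RPM (median 162). Its log2 fold change was 1.27 (standard error 0.42, edgeR adjusted P = 0.439) in PRCT and 1.36 (standard error 0.41, edgeR adjusted P = 0.268) in PRPR sperm. Medians of the 3 restricted groups were close together and above the CTCT median, with wide overlap. DESeq2 put both piRNAs past the threshold in PRCT sperm, each with an adjusted P of 0.0259.

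The third question was whether restriction after weaning went with other levels when the dam had been restricted. Between PRPR and PRCT mice, 0 of the 281 passed the adjusted threshold by edgeR (0.0% of all RNAs) and 0 by DESeq2. At the unadjusted threshold 2 were higher (0.712%, against 0.442% of all RNAs), namely piR-mmu-9547844 and piR-mmu-16510213, and 0 were lower (0.0%). The median log2 fold change was 0.03 (all RNAs, 0.05). Scaled to piRNA reads, there were 3 higher and 0 lower (0.662% and 0.221% of all RNAs). Between the 9 pairs of littermates, edgeR likewise called 0 after adjustment (0.0%), with 3 higher (1.07%, against 0.883%) and 0 lower (0.0%) before it, and a median of 0.07 (all RNAs, 0.08). With piRNA reads as library size the counts were 5 and 2 (1.32% and 0.883% of all RNAs).

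Those 3 were piR-mmu-9547844, piR-mmu-16499656 and piR-mmu-9343685. The levels of piR-mmu-9547844 ran from 5.92 to 37.999 RPM (median 17.9) in PRCT mice and from 9.91 to 90.6 RPM (median 29.4) in PRPR mice, and it was higher in the PRPR mouse in 8 of 9 litters. Its log2 fold change was 1.02 between the groups (standard error 0.41, edgeR adjusted P = 0.998). Between littermates it was 0.84 (standard error 0.30, edgeR adjusted P = 0.997). piR-mmu-16499656 was higher in the PRPR mouse in 9 of 9 litters (0.221% of all RNAs) and was the only one of the 281 for which this held. Its levels in the PRCT and the PRPR mouse were 40.5 and 109 RPM in litter 08G and 37.8 and 96.5 RPM in litter 40H, but 21.9 and 22.8 RPM in litter 51O. The log2 fold change was 0.72 (standard error 0.29, edgeR adjusted P = 0.997). For piR-mmu-9343685, higher in 6 of 9 litters, it was 0.84 (standard error 0.35, edgeR adjusted P = 0.997).

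The effects of restriction after weaning were then set against each other, as the change in sons of PR dams minus the change in sons of CT dams. In this interaction, 0 of the 281 passed the adjusted threshold by edgeR (0.0% of all RNAs) and 0 by DESeq2. At the unadjusted threshold 1 was above zero (0.356%, against 0.221%) and 20 below (7.12%, against 5.74%), with a median of -0.42 (all RNAs, -0.46). With piRNA reads as library size the median was 0.09, with 7 above and 2 below (3.09% and 0.662% of all RNAs). TMM factors gave 6 above and 4 below (15 and 6 of all 453 RNAs), and DESeq2 gave 9 and 3 (18 and 5 of 453). That fit took no account of litters. With litter as a block, over the 34 mice of 17 full litters and chosen after seeing the data, 0 passed the adjusted threshold, with 0 above and 13 below at the unadjusted one (1 and 16 of 453) and a median of -0.28. The 3 smallest P values in the fit without litters belonged to piR-mmu-16510213 (1.88, standard error 0.60), piR-mmu-25216821 (-1.96, standard error 0.71) and piR-mmu-8437470 (-1.64, standard error 0.64), each with an edgeR adjusted P of 0.725. For piR-mmu-25216821 the change after weaning was 1.71 in sons of CT dams and -0.25 in sons of PR dams.

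Between PRPR and CTPR mice, which differed in the diet before weaning only, 1 of the 281 passed the adjusted threshold (0.221% of all RNAs), piR-mmu-16510213. At the unadjusted threshold it was the only one higher in PRPR sperm (0.356%, against 0.221%), and 42 were lower (14.9%, against 11.5%). DESeq2 called the same single piRNA after adjustment (1 of all 453 RNAs). The median log2 fold change was -0.44 (all RNAs, -0.45), and 0.16 with piRNA reads as library size, when 17 were higher and 1 lower at that threshold (4.64% and 0.221% of all RNAs). TMM factors gave 9 higher and 15 lower (12 and 16 of all 453 RNAs), and DESeq2 gave 11 and 13 (15 and 14 of 453).

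Levels of piR-mmu-16510213 were 4.54 to 13.6 RPM (median 8.52) in CTPR and 6.56 to 106 RPM (median 16.9) in PRPR mice. They were 7.39 to 37.5 RPM (median 13.2) in CTCT and 6.15 to 32.3 RPM (median 15.6) in PRCT mice. Its log2 fold change between PRPR and CTPR was 1.82 (standard error 0.43, edgeR adjusted P = 0.0488). Mice 51O3 with 106 RPM and 36K3 with 89.6 RPM were far above the other PRPR mice, of which the highest had 25.8 RPM. The call was lost when either was left out, with log2 fold changes of 1.38 (edgeR adjusted P = 0.469) without 51O3 and 1.49 (edgeR adjusted P = 0.189) without 36K3. It was lost in 26 of the 38 fits without 1 mouse and kept in 12, and the adjusted P over all 49 alternatives ranged from 0.0116 to 0.721 (edgeR and DESeq2). Between littermates of CT dams this piRNA was lower in the CTPR mouse in 7 of 8 litters, and the difference was -0.73 on the log2 scale (standard error 0.28, edgeR adjusted P = 0.205).

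**Figure D4:**
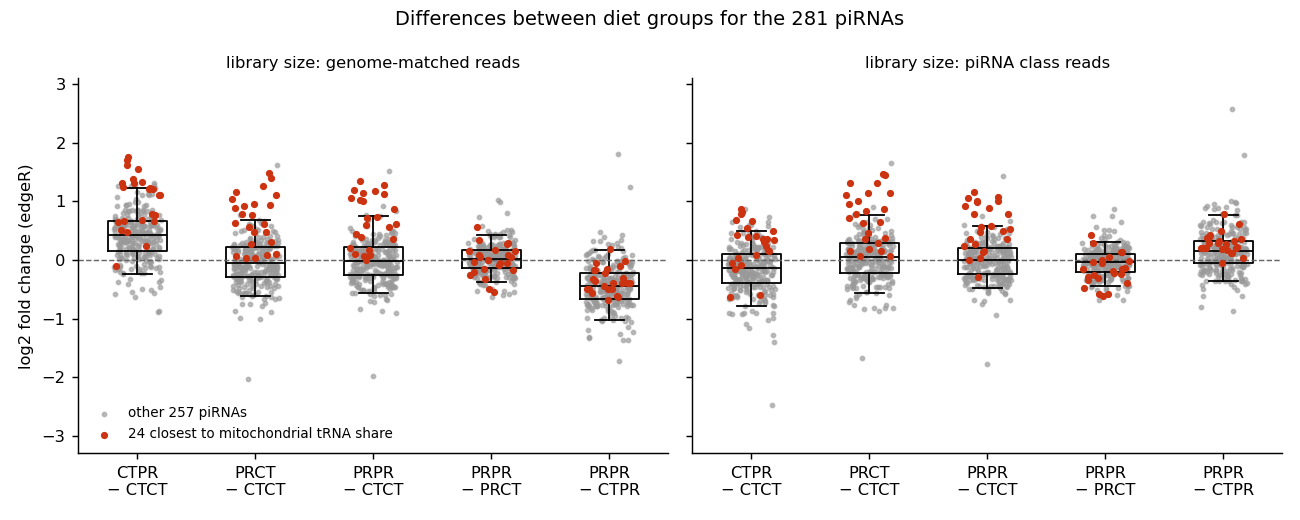
log2 fold changes of the 281 piRNAs in 5 contrasts (points), with boxes for quartiles and whiskers for the 5th to 95th percentiles. The left panel uses genome-matched reads as library size, with medians of 0.44 for CTPR against CTCT and -0.44 for PRPR against CTPR, and the right panel piRNA reads, with medians of -0.14 and 0.16. Red points are the 24 piRNAs whose levels followed the mitochondrial tRNA share most closely.

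The 281 piRNAs tended to go up and down together from mouse to mouse. On log2 RPM over 38 mice, the correlation between 2 piRNAs had a median of 0.47 (quartiles 0.30 and 0.61), and 0.15 when both were taken as shares of piRNA reads. These values describe libraries that share depth and total, and were not tested. For each piRNA, its level was also compared with the percentages of 9 RNA classes in the same libraries, on the log2 scale and as deviations from the group means, so that diet differences did not enter. This comparison was chosen after seeing the data. The closest class was all piRNA for 168 of the 281, lincRNA for 52, mitochondrial tRNA for 24, miRNA for 17, rRNA for 9, cellular tRNA for 5, mitochondrial rRNA for 5 and snoRNA for 1.

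The piRNAs that follow the piRNA class were the typical ones. piR-mmu-29625966 had the highest correlation with the piRNA percentage (Pearson's r = 0.96, Spearman's rho = 0.94, 38 mice, and r = 0.95 on deviations from the group means). The 168 had a median log2 fold change of 0.48 in CTPR, -0.09 in PRCT and -0.04 in PRPR sperm, each against CTCT. With piRNA reads as library size these medians were -0.08, 0.06 and 0.02.

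Closest to mitochondrial tRNA were 24 of the 281 piRNAs. Mitochondrial tRNAs are encoded in the mitochondrial genome and serve protein synthesis within the organelle, which in sperm is packed into the midpiece. The 24 included piR-mmu-10813768 (r = 0.91, rho = 0.92), piR-mmu-8437470 (r = 0.90, rho = 0.90), piR-mmu-2637740 (r = 0.90, rho = 0.91), piR-mmu-16586008, piR-mmu-6159833, piR-mmu-2208275, piR-mmu-25216821, piR-mmu-1938019 and piR-mmu-5334943. These r and rho are over the 38 mice without regard to group. On deviations from the group means, r was 0.88 for piR-mmu-10813768, 0.87 for piR-mmu-8437470 and 0.88 for piR-mmu-2637740. Without the 2 mice farthest from the median share, r over the remaining mice was 0.88 for piR-mmu-10813768 and 0.86 for piR-mmu-8437470. Mitochondrial tRNA itself took 3.04% ± 1.51 of the genome-matched reads in CTCT, 5.56% ± 2.05 in CTPR, 5.64% ± 1.51 in PRCT and 5.07% ± 2.76 in PRPR mice.

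Against CTCT, the median log2 fold change of the 24 was 1.16 in CTPR, 0.71 in PRCT and 0.67 in PRPR sperm, while all 281, the 24 included, had 0.44, -0.04 and -0.02. It was above zero for 23, 24 and 23 of the 24 in the same order. With piRNA reads as library size the 3 medians were 0.35, 0.74 and 0.55, all still positive. At an unadjusted P under 0.05, the 24 supplied 17 of the 51 piRNAs in CTPR, 9 of the 16 in PRCT and 10 of the 18 in PRPR sperm (edgeR). Of all 453 RNAs, 80 were higher and 1 lower at that threshold in CTPR, 13 and 7 in PRCT, and 18 and 3 in PRPR sperm. Nothing is read from the share of the 24. In these edgeR fits none of the 24 had an adjusted P under 0.05. The exceptions under alternatives were piR-mmu-8437470 and piR-mmu-10813768 in PRCT sperm with DESeq2, and piR-mmu-2208275, piR-mmu-6159833, piR-mmu-10813768 and piR-mmu-25216821 in CTPR sperm without mouse 45L3. Since the 24 were grouped with the data in view, no test was made of them as a set. Whether their reads come from mitochondrial transcripts was not tested.

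**Figure D5:**
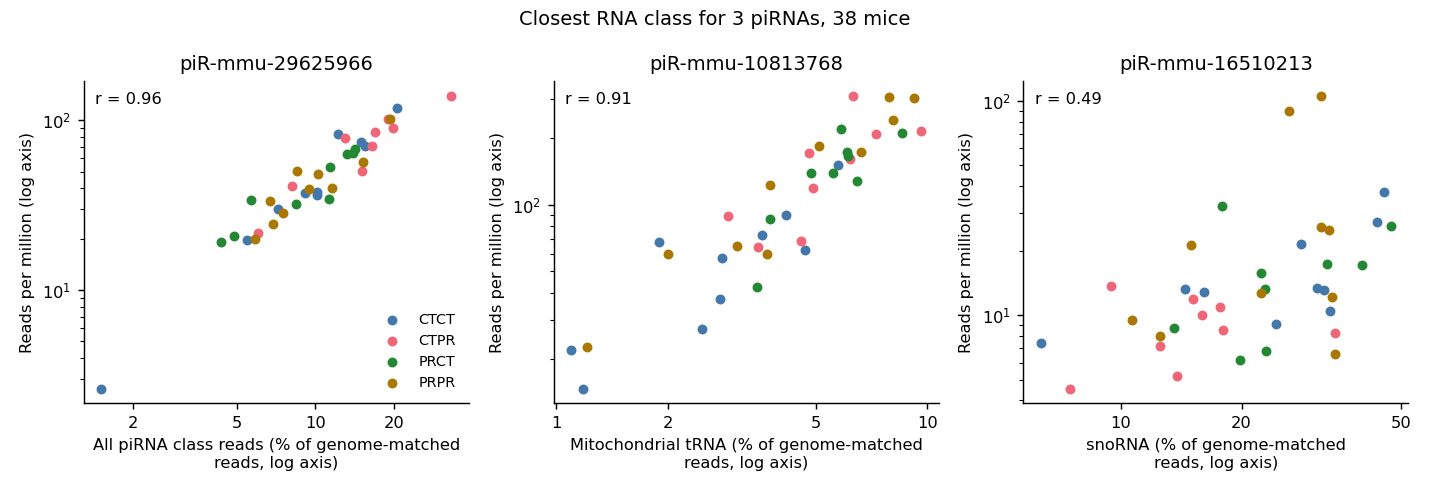
Level of 3 piRNAs (RPM, log axis) against the percentage of genome-matched reads in the RNA class closest to each (log axis), with 1 point for each of 38 mice coloured by group. piR-mmu-29625966 follows all piRNA (r = 0.96) and piR-mmu-10813768 follows mitochondrial tRNA (r = 0.91), while piR-mmu-16510213 follows snoRNA less closely (r = 0.49).

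The single piRNA closest to snoRNA was piR-mmu-16510213. Its correlation with the snoRNA percentage was moderate (r = 0.49, rho = 0.47, 38 mice, and r = 0.41 on deviations from the group means), and its mean correlation with the other 280 piRNAs was -0.34. snoRNA made up 16.03% ± 7.70 of genome-matched reads in CTPR and 25.1% ± 9.32 in PRPR mice, the 2 groups between which this piRNA differed. In CTCT mice snoRNA made up 27.5% ± 12.5 and in PRCT mice 26.6% ± 11.1, so its share was lowest in CTPR mice. The part of snoRNA in the difference between PRPR and CTPR was not tested.

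Some piRNAs of the list carry consecutive database numbers. They were looked for only among the 304 piRNAs with at least 10 reads in every mouse. Within those, there were 12 pairs with at least 1 of the 281 in them, and in 8 pairs both were among the 281. Over 38 mice the correlation of the 2 levels was between 0.56 and 0.83 in 11 of the pairs. The exception was the pair piR-mmu-13822987 and piR-mmu-13822988, with 0.19. The closest pair was piR-mmu-3046000 and piR-mmu-3046001 (0.83, with means of 11.7 and 26.8 RPM). In 4 pairs the neighbour was among the 30 most abundant piRNAs, since the search held no others outside the 281. An example was piR-mmu-11574719 (130 RPM) and piR-mmu-11574720 (329 RPM, correlation 0.56). Whether consecutive names have overlapping sequences was not tested.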

How the data were processed

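Sperm small RNA reads were assigned by the authors to the mouse genome (mm10) and to RNA databases (SPORTS pipeline). The deposited values are raw read counts, 1 file a mouse, for each RNA class and each named RNA in it. Database versions are not given in the sources used here. Named piRNAs held between 59.5% and 78.9% of the piRNA class reads. From the deposited counts, RPM was computed with the genome-matched reads of each mouse (4465281 to 7612603). Counting error, which weighs most near the minimum of 10 reads, was not separated from the spread between mice.

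Groups and litters followed the study's list of mice. For mice 47I1 and 47I2 it is opposite to the sample labels, whose grouping was an alternative. Counts were tested with edgeR 4.0.16 (R 4.3.3, glmQLFit and glmQLFTest, legacy = FALSE, no TMM, 4 groups in 1 fit). Littermates were fitted with litter and diet. Deviations of littermates from their group means correlated at 0.43 for the summed level (17 pairs). Alternatives were library size (TMM, piRNA reads), DESeq2 1.42.0, the older edgeR method, filters, litters 47I and 02A, 4 mice, and leaving out each mouse. The 4 were 35F2, 08G5, 31A3 and 07C3. Genome-matched reads minus the summed genome-matched class totals made up -9.14% of those reads in 35F2, so the totals exceeded them there. The difference was 20.1% in 08G5, 1.97% in 31A3 and at most 0.0990% in the other mice. In 07C3 the other class totals fell short of its reads not matching the genome by 75457 reads. A blocked interaction fit was added after seeing the data. Summaries used Python 3.11.15.

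The 281 piRNAs, the marker lists and the rule for names were chosen with earlier results of these data known. Named were the 8 highest and 3 lowest means, the 3 smallest and 3 largest SDs, and in each fit up to 3 piRNAs per direction past the adjusted threshold or, with none, the 3 smallest P values. Outside the list, 3 piRNAs on each side of its limits were named. Other names were chosen after their values were seen.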

Additional observations from a re-analysis of the deposited data

Results flagged for a closer look

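Single mice with outlying levels were looked for in each group, for the 27 named piRNAs and the 2 summed shares. Of 116 groups of values, 24 held such a mouse (20.7%), on the linear scale on which levels are skewed. How often such skewed values would be flagged by chance was not tested.

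Mouse 02A6 (CTCT) was flagged for 6 piRNAs. Its levels were 1004 RPM of piR-mmu-9622968 (next highest in the group 192), 791 RPM of piR-mmu-2919594 (next 341), 388 RPM of piR-mmu-18166063 (next 176), 318 RPM of piR-mmu-9053626 (next 96.7), 21.9 RPM of piR-mmu-11128471 (next 8.24) and 9.63 RPM of piR-mmu-6405257 (next 5.28). Other CTCT mice stood apart for 1 or 2 piRNAs each. Mouse 57P3 had 188 RPM of piR-mmu-51484238 and 11.8 RPM of piR-mmu-40530286. Mouse 53M1 had 156 RPM of piR-mmu-5334943, and mouse 45L3 had 81.8 RPM of piR-mmu-2208275.

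In the CTPR group, mouse 57P1 had 344 RPM of piR-mmu-25216821 (next 179), 305 RPM of piR-mmu-2919594 (next 168) and 15.2 RPM of piR-mmu-40530286 (next 8.22). Mouse 56I1 had 526.1 RPM of piR-mmu-11574719 (next 260) and 441 RPM of piR-mmu-5768130 (next 164). For piR-mmu-9547844, mouse 49K3 had 75.6 RPM (next 37.4).

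In the PRCT group, mouse 08G3 had 549 RPM of piR-mmu-18166063 (next 203), and mouse 39F5 had 18.7 RPM of piR-mmu-6159833 and 5.83 RPM of piR-mmu-11128471. In the PRPR group, the outlying values were 411 RPM of piR-mmu-9976943 in mouse 46I3, 358 RPM of piR-mmu-9622968 in mouse 39F6, 359 RPM of piR-mmu-5768130 in mouse 51O3, 142 RPM of piR-mmu-4476909 in mouse 08G5 and 19.2 RPM of piR-mmu-4019079 in mouse 40H3.

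Reads that did not match the genome were counted separately. Of 156549 piRNA names listed among them, 1 was among the 281, piR-mmu-31422863. It had 2380 such reads over 26 mice, against 3971 genome-matched reads over the 38 mice.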

How the results depend on the processing

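In the contrast for which each piRNA was named for its P value, 22 such results in all, none changed direction under any alternative run. Since small P values in the same data chose them, nothing is read from this. The median log2 fold change of the 281 did change sign in every contrast and littermate fit with piRNA reads as library size. It went from 0.44 to -0.14 for CTPR against CTCT, from -0.44 to 0.16 for PRPR against CTPR, and from -0.42 to 0.09 in the interaction. Against CTCT, the count past the adjusted threshold in PRCT sperm, 0 in the report, was 1 with TMM factors, 1 with piRNA reads as library size, 3 with DESeq2, 1 without mice 07C3, 35F2, 31A3 and 08G5, and 1 with the minimum set over the 37 mice other than 07C3. For PRPR sperm, also 0, it was 1 in each of these 5. The single piRNA was piR-mmu-2919594 in all of them, joined with DESeq2 by piR-mmu-8437470 and piR-mmu-10813768. With TMM factors, piRNA reads, DESeq2 and those mice left out, no RNA outside the 281 passed in either contrast. Between PRPR and CTPR the count of 1 was 0 with TMM factors, piRNA reads, the older edgeR method, the labels' grouping of 47I, without litter 47I, without litter 02A, with edgeR's filterByExpr and with no filter on low counts. It was 3 with the minimum set over 37 mice, a fit of 581 RNAs, where piR-mmu-1647966 and piR-mmu-6541322 were lower. The fit over 37 mice was chosen after seeing the data. The cause of these changes was not tested.

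Leaving out 1 mouse gave 0 to 4 calls for CTPR against CTCT, 0 to 1 for PRCT and for PRPR against CTCT and for PRPR against CTPR, and 0 throughout for the other contrasts. Leaving out 1 litter gave 0 to 1 between CTPR and CTCT littermates. With litter as a replicate block, calls were 0 in both contrasts, with 53 piRNAs at an unadjusted P under 0.05 for CTPR against CTCT and 3 for PRPR against PRCT. Over all 453 RNAs the first fit gave 77 higher and 2 lower, and the second 4 higher and 0 lower. Without the block the same mice gave 26 and 3 of the 281. In the interaction, the block gave 13 (21 without it), and 6 when litter 47I was also grouped by its labels, both chosen after seeing the data. The 53 fell to 26 without litter 35F and to 31 without 57P. The 3 became 12 without litter 51O and 8 without 59L. The 43 for PRPR against CTPR became 26 without 57P1, 66 without 09H5 and 83 without 40H3. Over all 453 RNAs that contrast had 1 higher and 52 lower, and 1 and 88 without 09H5. The 21 in the interaction became 10 without 57P1 or 51O3, 11 without 59L1 or 59L3, 12 without 31A6, 13 without 23F6 or 40H1, 33 without 23F4 and 39 without 40H3. The 2 for PRPR against PRCT became 4 without 40H1, 40H3, 46I1 or 59L1 and 5 without 39F5. With the labels' grouping of 47I, the 18 for PRPR against CTCT became 9 (8 higher and 3 lower of all 453 RNAs). The 21 in the interaction became 8 (1 above and 13 below of all 453). Counts given here without those of all RNAs are of the 281 only, so they do not set the 281 apart from other RNAs.

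As a percentage of piRNA reads instead of genome-matched reads, differences in the summed level were -0.746 points for CTPR, 0.718 for PRCT and 0.199 for PRPR, each minus CTCT, and -0.520 for PRPR minus PRCT. On genome-matched reads they were 0.335, 0.0290, 0.0220 and -0.00700. Without 07C3 the first 3 were 0.261, -0.0449 and -0.0519. The 281 were under the limit of 300, so the alternative for a longer list was not run.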

Other observations

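Smaller groups of the 281 followed other RNA classes, by the same comparison of deviations from group means. The 52 closest to lincRNA had a median log2 fold change from CTCT of 0.01 in CTPR, -0.25 in PRCT and -0.24 in PRPR sperm, and 27, 13 and 11 of the 52 were above zero. Their closest example, piR-mmu-9453850 (r = 0.81 on those deviations), had Pearson's r = 0.82 and Spearman's rho = 0.53 over the 38 mice as they are, and r = 0.47 without the 2 mice farthest from the median share, so that this relation leaned on those mice. The 17 closest to miRNA had medians of 0.45, 0.11 and 0.28, led by piR-mmu-1006824 (r = 0.87 and rho = 0.87 over the 38 mice, r = 0.88 on deviations). Among the 5 closest to cellular tRNA, piR-mmu-15924505 had r = 0.88 and rho = 0.92 over the 38 mice, and r = 0.87 on deviations. These groups were formed after seeing the data, and no test was made of them.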
